A study of Mus musculus with 18 samples.

Results

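A set of 9 genes of epithelial sodium and chloride transport was followed in sorted mouse lung epithelium, out of 30142 genes with a named probe set. They were chosen by function, with earlier results of these data known. Among them are the epithelial sodium channel subunits Scnn1a, Scnn1b and Scnn1g and the anion channels and exchangers Cftr, Slc26a4, Slc26a9 and Ano1. The others are the sodium-potassium-chloride cotransporter Slc12a2 and the sodium pump subunit Atp1b1. Each of the 9 members had exactly 1 probe set that carries its symbol and no other. All mice carried TCF/Lef:H2B/GFP, a transgene that places a nuclear green fluorescent protein under TCF/Lef sites and so reports Wnt/beta-catenin transcription, and were 8 to 12 weeks old. Lungs with trachea and bronchi were digested with dispase, although the tissue label reads distal lungs, so conducting airway was present at the start. Cells bearing CD31 or CD45 were depleted with beads, EpCAM-positive cells were enriched, and live EpCAM-positive cells were sorted by green fluorescence into high, low and negative fractions, named Wnthigh, Wntlow and Wntnegative. The labels name no treatment, and no group was without the transgene. Each array held RNA pooled from 3 to 4 animals, started from 8 ng of total RNA and measured on a whole-transcript array.

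Absorbing and secreting epithelia move salt, and water follows. Sodium enters through the apical sodium channel ENaC, which is built of alpha, beta and gamma subunits, and the basolateral sodium pump drives it out. Chloride enters from the blood side through the cotransporter NKCC1, the product of Slc12a2, and leaves through apical channels such as CFTR and the calcium-activated channel TMEM16A, the product of Ano1. In the lung this traffic sets the depth of the liquid over airway cilia and keeps alveoli free of excess fluid.

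The upstream sequences of 4 members are shown because the results turn on them: Scnn1b and Scnn1g for a shared pattern, Slc26a9 for a large difference between the groups, and Slc26a4 for 1 array that stands apart. Scnn1g and Scnn1b are neighbours on chromosome 7, with 0 annotated genes lying between them. The sequences are RefSeq's, build GRCm38.p6, given 5′ to 3′ on the gene's strand up to the base before the annotated gene start. They lie at chr7:121864788-121865037 (plus strand) for Scnn1b, chr7:121734229-121734419 (plus) for Scnn1g, chr1:131743772-131744021 (plus) for Slc26a9 and chr12:31560056-31560234 (minus) for Slc26a4. Capitals mark matches to TATAAA in Slc26a9 and to the steroid receptor half-site AGAACA in Slc26a4, each read on either strand.
Scnn1b: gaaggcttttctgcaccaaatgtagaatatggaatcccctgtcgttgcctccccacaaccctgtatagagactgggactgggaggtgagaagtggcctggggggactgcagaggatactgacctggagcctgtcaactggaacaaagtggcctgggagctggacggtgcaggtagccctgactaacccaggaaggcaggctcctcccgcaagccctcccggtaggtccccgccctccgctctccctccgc
Scnn1g: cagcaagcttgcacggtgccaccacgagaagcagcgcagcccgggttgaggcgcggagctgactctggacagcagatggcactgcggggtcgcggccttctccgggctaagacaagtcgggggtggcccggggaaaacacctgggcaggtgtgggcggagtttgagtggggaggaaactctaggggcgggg
Slc26a9: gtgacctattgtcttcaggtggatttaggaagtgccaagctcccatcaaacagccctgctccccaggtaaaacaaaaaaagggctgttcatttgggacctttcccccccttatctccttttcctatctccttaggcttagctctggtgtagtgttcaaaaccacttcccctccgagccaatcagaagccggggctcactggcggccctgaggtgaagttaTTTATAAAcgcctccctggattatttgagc
Slc26a4: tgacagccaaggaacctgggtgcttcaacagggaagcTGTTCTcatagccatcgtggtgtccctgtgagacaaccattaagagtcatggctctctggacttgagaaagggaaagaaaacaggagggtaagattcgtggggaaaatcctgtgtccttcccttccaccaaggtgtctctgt
Windows of 250 bases before and 50 after a start were read from the RefSeq promoter table for 7 of the 9 members. Scnn1a and Slc12a2 were not matched. The TCF/Lef core CTTTGA or its complement TCAAAG was in 1 of these 7 windows, that of Slc26a4, where it lay outside the stretch shown, and in 16% of all 32851 windows. AGAACA or TGTTCT was also in 1 of 7 and in 19% of all, and the Foxa core TGTTTAC or GTAAACA in 0 of 7 and in 3.65% of all. TATAAA or TTTATA, a search added after the windows had been read, was in 2 of 7 windows and in 13.6% of all. In Slc26a9 the forward and reverse forms overlap in TTTATAAA. The windows of Cftr, Ano1 and Atp1b1 were rich in G and C, at 71.3%, 71.7% and 71.0%, against a median of 52.7% over all windows. Those of Scnn1b and Scnn1g held 61.7% and 64.7%, and those of Slc26a4 and Slc26a9 lay near that median.

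There were 18 arrays, 6 of each group. Wnthigh arrays came from experiments 2, 4, 5, 7, 8 and 9, and Wntlow and Wntnegative arrays from experiments 3, 4, 5, 7, 8 and 9. Array medians lay between 4.62 and 4.77 for experiments 2 to 5, and between 3.55 and 3.69 for experiments 7 to 9, so the sets are called runs here and groups were compared with a term for the run. The labels do not say what separates the runs. The highest value of an array was 19.11 to 19.93. Differences are given in log2 units of the deposited scale and are not turned into folds of RNA, and levels are not compared between genes. A value under the 95th percentile of 23 background control probe sets of its array, which was 4.57 to 5.17, is called below background. P-values rest on the spread between pools of separate experiments within a group, and 6 arrays a group limit the precision. Arrays of different groups that share an experiment number were treated as independent in the main fit. Settings with the experiment number as a block are given below.

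Markers of the sorted cells were read on the same arrays as a mean log2 value per list. General epithelial markers were at 13.49 to 14.32 in Wnthigh, 13.44 to 14.31 in Wntlow and 12.71 to 13.75 in Wntnegative arrays. Ciliated cell markers ran from 14.58 to 15.12 in Wnthigh, 9.49 to 14.04 in Wntlow and 4.62 to 7.66 in Wntnegative arrays. Goblet and mucous markers ran from 7.00 to 10.68, 11.67 to 13.02 and 5.00 to 6.51 in the same order of groups, club cell markers from 14.10 to 15.34, 15.38 to 16.66 and 11.61 to 12.72, and submucosal gland markers from 6.64 to 9.48, 9.97 to 12.38 and 7.69 to 8.13. Alveolar type II markers ran from 11.24 to 16.10, 14.29 to 17.22 and 17.43 to 18.35, and type I markers from 6.38 to 9.25, 7.57 to 9.92 and 8.79 to 10.38. Alveolar markers were thus highest in the Wntnegative fraction and airway markers in the other fractions, although the tissue label is distal lungs. Over all arrays the ionocyte list was at 4.25 to 6.16, basal at 3.59 to 5.36, neuroendocrine at 3.54 to 5.57, tuft at 3.68 to 5.39, smooth muscle at 3.21 to 4.60, fibroblast at 3.51 to 5.96, endothelial at 3.93 to 6.45 and leukocyte at 5.14 to 7.08. Among defining markers, Trp63 and Ngfr of basal cells, Pecam1, Cdh5 and Tie1 of endothelium, and Ptprc, Tyrobp and Cd3e of leukocytes were below background on every array. Other genes of these lists were not: Krt15 of the basal list was below background on 6 of 18 arrays and Krt5 on 13. Of the endothelial list, Esam was below it on 0 of 18 arrays, with a mean of 9.94 in Wntnegative arrays, and Kdr on 6, the Wntnegative ones, with a mean of 10.58 in Wntlow arrays. Of the leukocyte list, Lyz2 had means of 15.96 in Wnthigh, 18.03 in Wntlow and 19.11 in Wntnegative arrays, and Cd79a was below background on 17 of 18. In such bulk samples, fewer cells of a type and less RNA per cell cannot be told apart.

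The members did not share 1 pattern. Scnn1b, Scnn1g and Ano1 were highest in Wntlow cells. Cftr, Slc26a4 and Slc26a9 were highest in Wntnegative cells. Slc12a2 and Atp1b1 were low in Wnthigh cells and close together in the other groups, while Scnn1a alone was highest in Wnthigh cells. Between Wnthigh and Wntnegative cells, 7 of 9 members passed (limma, Benjamini-Hochberg adjusted over 30142 genes, threshold 0.05), 1 higher and 6 lower in Wnthigh cells, where 40.3% of all genes passed, 15.7% higher and 24.6% lower. Their median log2 difference was −1.57, beside −0.05 over all genes. Between Wntlow and Wntnegative cells, 7 passed, 4 higher and 3 lower, where 25.5% of all genes passed, 12.3% higher and 13.2% lower, with a median of −0.10 beside −0.03. Between Wnthigh and Wntlow cells, 8 passed, 1 higher and 7 lower, where 27.9% of all genes passed, 11.4% higher and 16.4% lower, with a median of −2.58 beside −0.01. The arrays of the compared groups did not overlap, in the same direction in both runs, for 6, 6 and 7 members in the order of these comparisons, beside 30.7%, 15.6% and 18.4% of all genes. Without the run term 6, 4 and 6 members passed, beside 9.37%, 3.52% and 4.48% of all genes. In experiments 2 to 5 alone 6, 1 and 3 passed, beside 29.9%, 8.4% and 10.9%, and in experiments 7 to 9 alone 5, 6 and 8, beside 26.2%, 14.8% and 20.2%. The 3 comparisons share arrays, so their counts are not independent of each other. Because the members were chosen with earlier results known, their counts beside the shares of all genes are a description only.

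**Figure D1:**
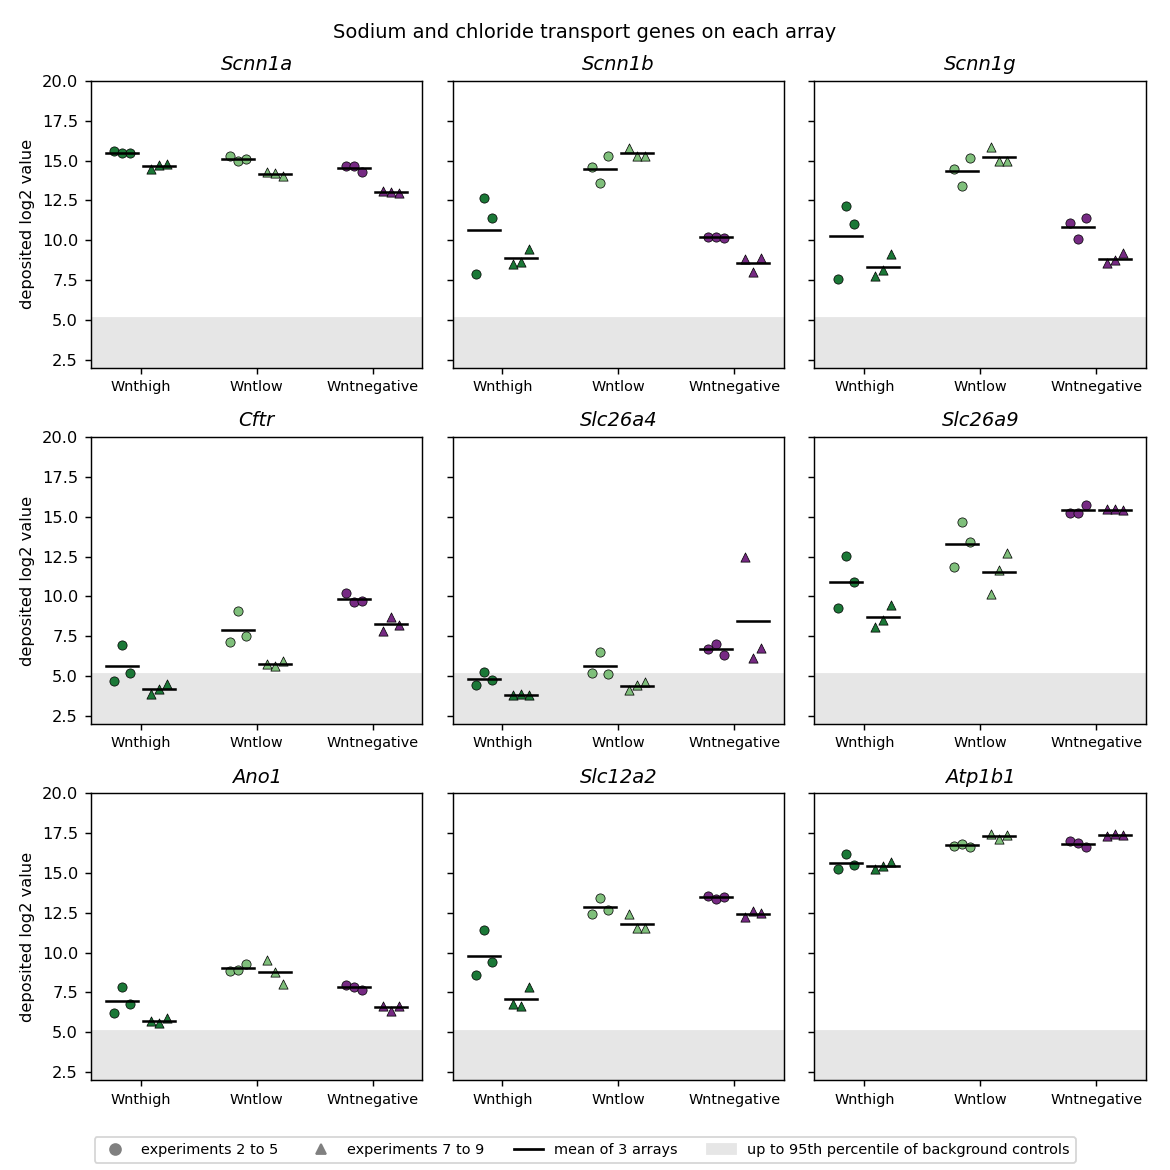
Deposited log2 values (vertical axis) of the 9 members on each of 18 arrays by group (horizontal axis), with circles for experiments 2 to 5, triangles for experiments 7 to 9, bars for the mean of 3 arrays and grey up to the 95th percentile of background controls. Scnn1b and Scnn1g stand highest in Wntlow arrays, Slc26a9 in Wntnegative arrays, and 1 Wntnegative array of Slc26a4 is at 12.48.

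The sodium channel subunits did not move together. The alpha subunit gene Scnn1a, whose product is needed for the channel to reach the surface and conduct, differed most between Wnthigh and Wntnegative cells, by 1.30 over both runs and 1.64 in experiments 7 to 9, while the beta and gamma genes differed between Wntlow and the other groups by several log2 units. In values below, those of Wnthigh arrays are in the order of experiments 2, 4 and 5, then 7, 8 and 9, and those of the other groups in the order of experiments 3, 4 and 5, then 7, 8 and 9.

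Scnn1a stood at 15.59, 15.47 and 15.46, then 14.48, 14.71 and 14.79 in Wnthigh arrays. Wntlow arrays gave 15.27, 14.97 and 15.11, then 14.28, 14.24 and 14.05. Wntnegative arrays gave 14.64, 14.67 and 14.29, then 13.07, 13.02 and 12.98. Within each run the order was Wnthigh, Wntlow, Wntnegative with no overlap between neighbours. Over both runs the means were 15.08 ± 0.48 (SD, n = 6, as for each group mean that follows), 14.65 ± 0.52 and 13.78 ± 0.84. Scnn1a rose in Wnthigh against Wntnegative cells by 1.30 (SE 0.12, limma adjusted p = 1.64e-07), by 0.97 in experiments 2 to 5 and 1.64 in experiments 7 to 9. It was higher in Wntlow than in Wntnegative cells by 0.88 (SE 0.12, adjusted p = 5.64e-05) and in Wnthigh than in Wntlow cells by 0.43 (SE 0.12, adjusted p = 0.0104). Both of these smaller differences failed the limma test without the run term, with adjusted p = 0.352 and 1. In experiments 2 to 5 alone, the Wnthigh to Wntlow difference of 0.39 had adjusted p = 0.0817.

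The beta subunit gene Scnn1b, whose product with gamma raises the current the channel carries, was high in Wntlow cells. Its Wnthigh values were 7.86, 12.65 and 11.37, then 8.52, 8.65 and 9.45. Its Wntlow values were 14.60, 13.62 and 15.28, then 15.79, 15.26 and 15.31. Its Wntnegative values were 10.22, 10.19 and 10.12, then 8.81, 7.99 and 8.86. All 6 Wntlow arrays were above all 12 others, and Wnthigh and Wntnegative arrays overlapped in both runs. The means were 9.75 ± 1.87 in Wnthigh, 14.98 ± 0.77 in Wntlow and 9.37 ± 0.94 in Wntnegative arrays. Scnn1b was higher in Wntlow than in Wntnegative cells by 5.61 (SE 0.68, limma adjusted p = 2.55e-05) and lower in Wnthigh than in Wntlow cells, with a log2 difference of −5.23 (SE 0.68, adjusted p = 2.40e-05). In experiments 7 to 9 alone these were 6.90 (adjusted p = 3.73e-05) and −6.58 (3.77e-05). In experiments 2 to 5 alone they were 4.32 and −3.87 and did not pass (adjusted p = 0.0587 and 0.0696). Between Wnthigh and Wntnegative cells the difference was 0.38 (95% interval −1.07 to 1.84, adjusted p = 0.696), and it was −0.15 without the Wnthigh array of experiment 4.

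Scnn1g, the gamma subunit gene, followed the beta gene closely. It stood at 7.57, 12.13 and 11.03, then 7.78, 8.11 and 9.13 in Wnthigh arrays. It was at 14.45, 13.39 and 15.18, then 15.83, 14.99 and 14.95 in Wntlow arrays. In Wntnegative arrays it was at 11.08, 10.07 and 11.38, then 8.59, 8.73 and 9.21. Again the 6 Wntlow arrays were the 6 highest, with means of 9.29 ± 1.88, 14.80 ± 0.82 and 9.84 ± 1.20 in Wnthigh, Wntlow and Wntnegative arrays. Scnn1g was higher in Wntlow than in Wntnegative cells by 4.95 (SE 0.71, limma adjusted p = 1.04e-04), and the Wnthigh minus Wntlow difference was −5.51 (SE 0.71, adjusted p = 2.24e-05). In experiments 2 to 5 alone neither passed, at 3.50 (adjusted p = 0.104) and −4.10 (0.0608), and in experiments 7 to 9 alone both did, at 6.41 and −6.92. Between Wnthigh and Wntnegative cells the difference was −0.55 (95% interval −2.07 to 0.96, adjusted p = 0.579).

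Across the 18 arrays, with each value centred on its run, Scnn1b and Scnn1g correlated at r = 0.984, and at 0.944 when group means were also removed. Their correlations with Scnn1a were 0.24 and 0.11. These are descriptions over arrays that share groups and experiments. Goblet and mucous, submucosal gland and club cell markers also had their highest list means in Wntlow cells. Of the submucosal gland list, however, Sox10 was below background on all 18 arrays. Dmbt1 was below it on 12, the Wnthigh and Wntnegative ones. Of the goblet and mucous markers, 7 of 8 passed as higher in Wntlow than in Wntnegative cells and 8 of 8 as lower in Wnthigh than in Wntlow cells. Submucosal gland markers, of which 4 were measured, passed as higher in 2 and as lower in 3 in the same comparisons, and club markers as higher in 6 of 7 and as lower in 4 of 7. Between Wnthigh and Wntnegative cells, Scnn1b and Scnn1g did not pass. The median difference there was 2.43 for goblet and mucous, 2.26 for club and 0.06 for submucosal gland markers. In that order, 5 of 8, 7 of 7 and 1 of 4 passed as higher, and 2, 0 and 1 as lower. Of the submucosal gland list, Ltf, which encodes lactoferrin, was at 4.22 and Lyz1, a lysozyme gene, at −4.88. The part of these cell types in the differences was not tested.

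**Figure D2:**
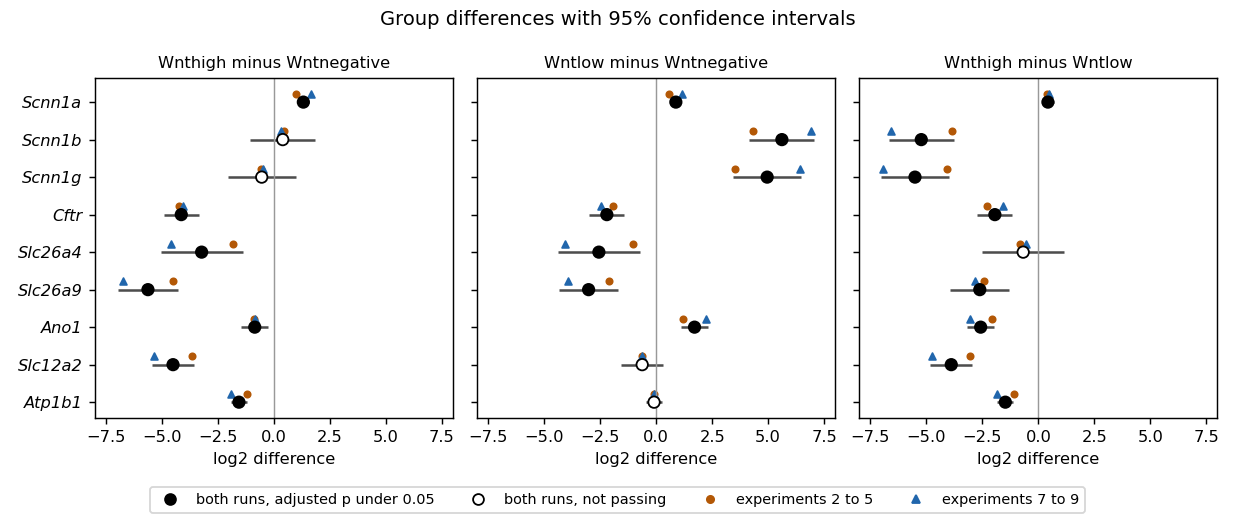
Log2 differences (horizontal axis) of the 9 members (vertical axis) in the 3 comparisons, with large points and 95% confidence intervals from both runs, filled where the adjusted p was under 0.05, and small circles and triangles for experiments 2 to 5 and 7 to 9. Scnn1b and Scnn1g lie at 5.61 and 4.95 between Wntlow and Wntnegative cells, and 0.38 and −0.55 between Wnthigh and Wntnegative cells.

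The anion channel and exchanger genes passed as lower in Wnthigh than in Wntnegative cells in 4 of 4, beside 24.6% of all genes. The call of Ano1 was lost in either run alone, without the run term and with the experiment number as a fixed replicate block. That of Slc26a4 was lost in the later-numbered experiments alone. The 4 genes parted in Wntlow cells, where Cftr, Slc26a4 and Slc26a9 were lower than in Wntnegative cells and Ano1 was higher.

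Cftr encodes the cyclic AMP-gated anion channel of the apical membrane that is defective in cystic fibrosis. In Wnthigh arrays it was at 4.68, 6.98 and 5.20, then 3.90, 4.17 and 4.49. Wntlow arrays had 7.11, 9.09 and 7.52, then 5.77, 5.65 and 5.93. Wntnegative arrays had 10.24, 9.64 and 9.69, then 7.80, 8.71 and 8.21. Within each run the order was Wntnegative, Wntlow, Wnthigh without overlap. Of the 6 Wnthigh arrays, 4 were below background, those of experiments 2, 7, 8 and 9. The means were 4.90 ± 1.11, 6.84 ± 1.34 and 9.05 ± 0.95 in Wnthigh, Wntlow and Wntnegative arrays. Cftr fell in Wnthigh against Wntnegative cells, with a log2 difference of −4.15 (SE 0.37, limma adjusted p = 1.43e-07), and the size was at least 3.70, from a value of −3.70 with Wnthigh arrays raised to their background. Against Wntnegative cells, Wntlow cells differed by −2.21 (SE 0.37, adjusted p = 3.27e-04). Wnthigh minus Wntlow was −1.94 (SE 0.37, adjusted p = 6.23e-04), or −1.49 with the background as a floor. The Wntlow to Wntnegative and the Wnthigh to Wntlow calls were lost without the run term (adjusted p = 0.0518 and 0.0935) and in experiments 2 to 5 alone (adjusted p = 0.132 and 0.0799).

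Slc26a9, an apical chloride channel and transporter that can act beside CFTR, was highest in Wntnegative cells. Wnthigh arrays had 9.27, 12.55 and 10.89, then 8.09, 8.50 and 9.49. Wntlow arrays had 11.87, 14.69 and 13.39, then 10.18, 11.64 and 12.71. Wntnegative arrays had 15.25, 15.26 and 15.71, then 15.48, 15.48 and 15.42. The 6 Wntnegative arrays were above all others and had the smallest spread, with a mean of 15.43 ± 0.17 against 9.80 ± 1.66 in Wnthigh and 12.41 ± 1.56 in Wntlow arrays. Its Wntnegative values lay at the same level in both runs. The Wnthigh minus Wntnegative difference was −5.64 (SE 0.62, limma adjusted p = 1.60e-06), with −4.51 and −6.77 in the runs. Wntlow minus Wntnegative was −3.02 (SE 0.62, adjusted p = 0.00178) and Wnthigh minus Wntlow was −2.61 (SE 0.62, adjusted p = 0.00396). In experiments 2 to 5 alone these last differences, −2.09 and −2.41, did not pass (adjusted p = 0.215 and 0.152), and the Wnthigh and Wntlow arrays overlapped in that run.

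Alveolar type II markers stood with Cftr and Slc26a9: of 10, 9 passed as lower in Wnthigh than in Wntnegative cells, 4 as lower in Wntlow than in Wntnegative and 5 as lower in Wnthigh than in Wntlow cells. Of 10 type I markers, 8, 5 and 4 passed as lower and 2, 1 and 2 as higher in the same comparisons. The part of either cell type in the differences of Cftr and Slc26a9 was not tested. Markers of ionocytes, airway cells known for high Cftr, gave a mixed reading. Their transcription factor gene Foxi1 lay between 4.90 and 5.85 in experiments 2 to 5, and between 3.94 and 4.46 in the other run, and was above background on 8 of 18 arrays. In the former run its Wntnegative values were 5.71, 5.70 and 5.85, and those of the other groups reached 5.46. In the latter run all its values were below background. Atp6v0d2, Stap1 and Moxd1 were below background on every array, Atp6v1g3 on 17 and Ascl3 on 14. The proton pump subunit gene Atp6v1b1, in contrast, was at 8.80 to 11.13 in Wntlow arrays and at 3.90 to 7.45 in the others, with Wntlow minus Wntnegative at 5.19 (limma adjusted p = 7.88e-07). Atp6v1c2, another subunit, was above background on all 18 arrays and had the order of Cftr, with means of 6.63 in Wnthigh, 9.24 in Wntlow and 10.25 in Wntnegative arrays. Ascl3 ran opposite to Cftr between Wnthigh and Wntnegative arrays of the earlier-numbered experiments. It was at 5.91, 5.61 and 6.17 in the former, all above background, and at 4.45, 4.92 and 4.32 in the latter, all below it. Pparg, a nuclear receptor gene, was below background on 2 arrays. Of the 9 ionocyte list genes, 2 were higher and 3 lower in Wnthigh than in Wntnegative cells, 2 and 2 in Wntlow than in Wntnegative, and 1 and 2 in Wnthigh than in Wntlow cells. The list mean was highest in Wntlow arrays in both runs, at 5.93 to 6.16 in the earlier-numbered experiments and 5.02 to 5.25 in the later ones. That mean includes the 5.19 of Atp6v1b1, whereas the median Wntlow minus Wntnegative difference of the 9 genes was 0.006. Of the 9, 4 were below background on every Wntlow array. The part of ionocytes in the Cftr values was not tested.

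Slc26a4 encodes pendrin, an apical exchanger of chloride for bicarbonate and other anions. It was at 4.44, 5.25 and 4.76, then 3.84, 3.88 and 3.81 in Wnthigh arrays. In Wntlow arrays it was at 5.19, 6.54 and 5.12, then 4.14, 4.44 and 4.61. In Wntnegative arrays it was at 6.71, 7.02 and 6.29, then 12.48, 6.14 and 6.78. All 6 Wntnegative arrays were above background, against 1 of 6 Wnthigh and 2 of 6 Wntlow arrays. The Wntnegative array of experiment 7 lay far above the other 5, which gave the group a mean of 7.57 ± 2.43 beside 4.33 ± 0.60 in Wnthigh and 5.01 ± 0.85 in Wntlow arrays. Slc26a4 was lower in Wnthigh than in Wntnegative cells, with a log2 difference of −3.24 (SE 0.86, limma adjusted p = 0.00609), or −2.51 with the background as a floor. Without that array it was −2.17 (adjusted p = 1.07e-05), and in experiments 7 to 9 alone, which hold it, −4.62 did not pass (adjusted p = 0.0622). Wntlow minus Wntnegative was −2.56 (SE 0.86, adjusted p = 0.0386), or −2.29 with the floor, and −1.49 (adjusted p = 8.81e-04) without the same array. With all of experiment 7 left out, the differences were −2.16 and −1.41.

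The Wntlow to Wntnegative call of Slc26a4 was not firm while that array stayed in. It was lost without the run term (adjusted p = 0.108) and with the experiment number as a fixed replicate block (0.0600). That call was also absent with the arrays of these 2 groups alone (0.102) and in either run alone (0.163 and 0.140). It was also lost without the Wntlow array of experiment 3, 5, 7, 8 or 9 in turn (adjusted p = 0.0626, 0.0629, 0.0783, 0.0762 and 0.0676), without the Wntnegative array of experiment 4 (0.0509), and without all arrays of experiment 3, 5, 8 or 9 (0.0672, 0.0697, 0.0757 and 0.0902). Wnthigh and Wntlow arrays were not told apart for Slc26a4, at −0.68 (95% interval −2.51 to 1.16, adjusted p = 0.673).

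Ano1 encodes the calcium-activated chloride channel TMEM16A, which airway secretory cells and smooth muscle are known to express. Its Wnthigh arrays gave 6.20, 7.84 and 6.76, then 5.74, 5.55 and 5.87. Its Wntlow arrays gave 8.85, 8.88 and 9.31, then 9.54, 8.79 and 8.04. Its Wntnegative arrays gave 7.96, 7.82 and 7.68, then 6.67, 6.36 and 6.67. The 6 Wntlow arrays were the 6 highest, with means of 6.33 ± 0.86, 8.90 ± 0.52 and 7.19 ± 0.70 in Wnthigh, Wntlow and Wntnegative arrays. Ano1 was higher in Wntlow than in Wntnegative cells by 1.71 (SE 0.29, limma adjusted p = 3.45e-04), though not in experiments 2 to 5 alone (1.19, adjusted p = 0.1003). Wnthigh minus Wntlow was −2.58 (SE 0.29, adjusted p = 7.60e-06), with −2.08 and −3.07 in the runs, both past the threshold. The smaller Wnthigh minus Wntnegative difference of −0.87 (SE 0.29, adjusted p = 0.0235) did not pass in either run alone (adjusted p = 0.128 and 0.124). It also did not pass without the run term (0.278) or with the experiment number as a fixed replicate block (−0.77, 0.0858). The call was lost as well without the Wnthigh array of experiment 2 or 8 (0.0602 and 0.0531) or the Wntnegative array of experiment 3 (0.0533). Leaving out experiment 2, 3, 5, 8 or 9 also lost it (0.0510 to 0.0785). Smooth muscle markers gave means of 3.21 to 4.60 over all arrays. Of these 6 genes, 6 were below background on every Wntlow and Wntnegative array, and the remaining exception was Acta2, at 5.21, on the Wnthigh array of experiment 4.

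Run-centred values of Ano1 correlated with Scnn1b and Scnn1g at 0.904 and 0.940 over the 18 arrays, and with Cftr at 0.286. Cftr and Slc26a9 correlated at 0.954, and at 0.778 with group means removed too.

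The basolateral genes shared a pattern in which Wnthigh cells stood apart and the other groups lay together. Slc12a2 brings chloride into the cell with sodium and potassium, and Atp1b1 is the beta subunit that carries the sodium pump to the membrane.

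Slc12a2 was at 8.60, 11.42 and 9.40, then 6.77, 6.66 and 7.83 in Wnthigh arrays. It was at 12.45, 13.42 and 12.68, then 12.43, 11.52 and 11.52 in Wntlow arrays. It was at 13.55, 13.40 and 13.48, then 12.26, 12.62 and 12.47 in Wntnegative arrays. Every Wnthigh array was below every array of the other groups, which overlapped each other in both runs. The means were 8.45 ± 1.80, 12.34 ± 0.73 and 12.96 ± 0.57 in Wnthigh, Wntlow and Wntnegative arrays. Slc12a2 fell in Wnthigh cells against both, with −4.52 (SE 0.44, limma adjusted p = 4.15e-07) against Wntnegative and −3.89 (SE 0.44, adjusted p = 8.49e-06) against Wntlow cells. Within runs the former was −3.67 and −5.36 and the latter −3.04 and −4.73, all past the threshold. Wntlow minus Wntnegative was −0.63 (95% interval −1.56 to 0.31, adjusted p = 0.341), which passed when only those 2 groups were in the fit (adjusted p = 0.0393).

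Atp1b1 gave 15.27, 16.18 and 15.48, then 15.23, 15.46 and 15.70 in Wnthigh arrays. It gave 16.73, 16.84 and 16.64, then 17.44, 17.15 and 17.36 in Wntlow arrays. In Wntnegative arrays it gave 17.01, 16.89 and 16.64, then 17.35, 17.46 and 17.42. All 6 Wnthigh arrays were the 6 lowest. The means were 15.55 ± 0.35, 17.03 ± 0.34 and 17.13 ± 0.33 in Wnthigh, Wntlow and Wntnegative arrays. Atp1b1 differed by −1.57 (SE 0.17, limma adjusted p = 9.87e-07) between Wnthigh and Wntnegative and by −1.47 (SE 0.17, adjusted p = 8.15e-06) between Wnthigh and Wntlow cells, past the threshold in each run alone. Wntlow minus Wntnegative was −0.10 (95% interval −0.45 to 0.26, adjusted p = 0.723). Over the 18 arrays the run-centred values of Slc12a2 and Atp1b1 correlated at 0.988, and at 0.884 with group means removed.

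Ciliated markers moved opposite to the basolateral genes, with 8 of 8 passing as higher in Wnthigh than in Wntnegative and than in Wntlow cells. They were also higher in Wntlow than in Wntnegative cells in 8 of 8, where Slc12a2 and Atp1b1 did not pass. The part of ciliated cells in the lower values of Slc12a2 and Atp1b1 was not tested.

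The Wnthigh array of experiment 4 was the highest of the 3 Wnthigh arrays of its run for 8 of 9 members, the exception being Scnn1a. The share of all genes highest on this array was not counted, so the count of members is a description only. On that array alveolar type II markers averaged 16.10, against 12.08 and 14.27 on the Wnthigh arrays of experiments 2 and 5, and goblet and mucous markers averaged 10.68, against 7.00 and 8.42. Muc5b, the gel-forming mucin of airways, was at 12.79 there and at 6.83 and 8.46 on the other 2 arrays. The part of those cell types in the members' values was not tested. Without this array, Wnthigh minus Wntnegative was −4.41 for Cftr, −6.08 for Slc26a9, −4.98 for Slc12a2, −1.74 for Atp1b1 and −1.09 for Ano1 (limma adjusted p = 5.63e-08, 4.04e-07, 1.05e-08, 1.75e-08 and 0.00205), each further from 0 than with it. Wnthigh minus Wntlow was −5.76 for Scnn1b and −6.01 for Scnn1g without it. Because the array was the highest of its run for all these members, leaving it out was bound to lower their Wnthigh mean in that run. The larger sizes are therefore no test of the differences.

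**Figure D3:**
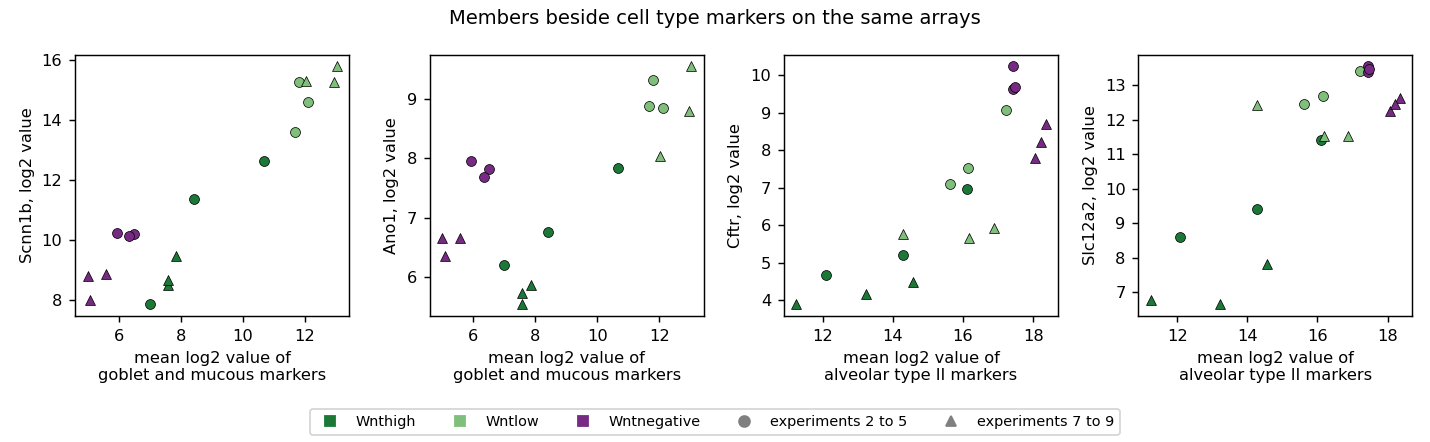
Log2 values of Scnn1b, Ano1, Cftr and Slc12a2 (vertical axes) against the mean log2 value of goblet and mucous or alveolar type II markers (horizontal axes) on the same 18 arrays, coloured by group, with circles for experiments 2 to 5 and triangles for experiments 7 to 9. The Wnthigh array of experiment 4, at a goblet and mucous mean of 10.68 and a type II mean of 16.10, lies nearest the Wntlow arrays among Wnthigh arrays.

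The group differences themselves were compared between runs. No member, and 0 of 30142 genes, had a difference that differed between runs in limma after adjustment, in any comparison. At an unadjusted p under 0.05 there were 3, 2 and 4 members for Wnthigh minus Wntnegative, Wntlow minus Wntnegative and Wnthigh minus Wntlow, beside 6.44%, 5.83% and 7.24% of all genes. The lowest unadjusted p was that of Scnn1a, whose Wnthigh minus Wntnegative difference was larger by 0.66 (SE 0.16) in experiments 7 to 9 (unadjusted p = 8.64e-04, adjusted p = 0.387).

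Other genes of the pathway were read from lists by role, to be set beside the shares of all genes. Between Wnthigh and Wntnegative cells, 15.7% of all genes passed as higher and 24.6% as lower. Between Wntlow and Wntnegative cells these shares were 12.3% and 13.2%, and between Wnthigh and Wntlow cells 11.4% and 16.4%. Without the run term, 9.37%, 3.52% and 4.48% passed in either direction. Of 17 regulators of the sodium channel, 4 were higher and 10 lower in Wnthigh than in Wntnegative cells, 7 higher and 5 lower in Wntlow than in Wntnegative, and 2 higher and 10 lower in Wnthigh than in Wntlow cells. Their median differences were −0.53, 0.13 and −0.48. Nedd4l, the ubiquitin ligase that removes the channel from the membrane, had differences of −1.99, −0.93 and −1.06 in that order (limma adjusted p = 2.76e-08, 2.60e-04 and 4.88e-05). The glucocorticoid receptor gene Nr3c1 had −1.59, −1.02 and −0.58, with adjusted p up to 0.00115. Tmprss2, an apical serine protease of a family that can cleave the channel, had 3.35, 2.00 and 1.35, with adjusted p up to 1.09e-04. Bpifa1, a secreted airway protein that binds the channel and limits its activity, had 8.02, 10.70 and −2.68, with adjusted p up to 0.00367. Thus Bpifa1 shared with Scnn1b and Scnn1g its highest level in Wntlow cells. Without the run term, 2 higher and 1 lower, 2 higher and 0 lower, and 0 higher and 1 lower were past the threshold in this list.

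Of 9 measured partners and regulators of CFTR, 3 were higher and 4 lower in Wnthigh than in Wntnegative cells, 1 and 4 in Wntlow than in Wntnegative, and 2 and 3 in Wnthigh than in Wntlow cells, with medians of −0.05, −0.32 and −0.01. Ezr, whose product ezrin ties membrane proteins to actin, had 1.09, −0.32 and 1.41, the middle value not passing (adjusted p = 0.267). The scaffold gene listed as Slc9a3r2 had −1.56, −0.87 and −0.69, Ahcyl1, which encodes the inositol trisphosphate receptor binding protein IRBIT, had −0.93, −0.34 and −0.58, and Prkar2a, a regulatory subunit of protein kinase A, had −1.04, −0.60 and −0.44. These last 3 genes passed in every comparison and followed the order of Cftr, highest in Wntnegative and lowest in Wnthigh cells. Without the run term the list had 1 higher and 0 lower, 0 and 0, and 0 and 0 past the threshold, and Slc9a3r2, Ahcyl1 and Prkar2a passed in none of the comparisons (adjusted p = 0.333, 0.219 and 0.610 for Wnthigh minus Wntnegative, and 1 in the other comparisons).

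Among 23 other anion channels and exchangers, 4 were higher and 7 lower, 4 higher and 5 lower, and 3 higher and 4 lower in the order of the comparisons above. Their medians were −0.03, −0.02 and −0.00. Best1, a calcium-activated anion channel of the bestrophin family, rose by 2.13 and 1.30 in Wnthigh and Wntlow against Wntnegative cells, or 2.10 and 1.27 with the background as a floor, since 1 Wntnegative array was below it. Slc26a2, a sulfate transporter of the same family as Slc26a4 and Slc26a9, rose by 1.47 in both, while Wnthigh and Wntlow cells did not differ past the threshold (difference −0.00, SE 0.20, adjusted p = 1). Ano10, a relative of Ano1, had −1.09, −0.52 and −0.58. Slc26a11 was below background on 11 of its 18 arrays. Of 9 measured pump subunits and FXYD proteins, 3 were higher and 3 lower, 1 and 1, and 2 and 2, with medians of −0.00, −0.03 and −0.04. Atp1b3, another beta subunit of the pump, repeated the pattern of Atp1b1 with −1.06, −0.08 and −0.97, the middle value not passing (adjusted p = 0.706). Fxyd4 was higher in Wnthigh than in Wntnegative cells by at least 1.41, since all 6 Wntnegative arrays were below background. Fxyd1 and Fxyd3 were below background on 9 and 7 of 18 arrays. Without the run term, 1 higher and 0 lower, 2 and 1, and 0 and 1 of the other anion channels and exchangers were past the threshold, and 1 and 0, 0 and 0, and 0 and 0 of the pump subunits and FXYD proteins.

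Of 15 measured cotransporters and exchangers, 3 were higher and 6 lower, 4 higher and 3 lower, and 3 higher and 5 lower, with medians of −0.05, −0.00 and −0.03. Slc12a7, a potassium-chloride cotransporter of the same family as Slc12a2, ran the other way, with 3.78, 2.12 and 1.67 (limma adjusted p = 4.75e-09, 4.78e-06 and 1.95e-05). The kinase gene Stk39, whose product activates NKCC1, fell with Slc12a2, at −2.18, −1.04 and −1.14. Slc4a8, a sodium-driven chloride-bicarbonate exchanger, rose by 4.60, 1.73 and 2.86, or 4.43 and 1.57 for the first 2 with the background as a floor. Slc9a2, a sodium-proton exchanger, was higher in Wnthigh than in Wntnegative cells by at least 1.43. Of 13 potassium channel genes, 1 was higher and 5 lower, 3 higher and 2 lower, and 1 higher and 6 lower, with medians of −0.08, −0.10 and −0.24. Kcnj15, an inward rectifier, had −4.75, −0.83 and −3.91, and Kcnq1, a channel that helps to drive chloride secretion, had −1.78, 0.34 and −2.12. The middle values did not pass (adjusted p = 0.276 and 0.377). Kcnk1 had −2.39, 0.45 and −2.84, likewise without a call for the middle value (adjusted p = 0.381). These 3 channels shared with Slc12a2 and Atp1b1 low values in Wnthigh cells and no call between the other groups. Kcnk5 ran opposite, at 1.44, −0.38 (adjusted p = 0.206) and 1.82. Of 6 water channels, 1 was higher and 1 lower, 3 higher and 0 lower, and 0 higher and 3 lower, with medians of 0.12, 0.39 and −0.37. Aqp5, the apical water channel of alveolar type I and gland cells, had −3.39, −0.40 (adjusted p = 0.484) and −2.99. With the background as a floor, Wnthigh minus Wntnegative and Wnthigh minus Wntlow were −2.11 and −2.56 for Kcnk1, 1.36 and 1.41 for Kcnk5, and −3.21 and −2.81 for Aqp5. Aqp3, Aqp4 and Aqp11 were below background on 13, 6 and 11 of 18 arrays. Without the run term, calls higher and lower were 3 and 5, 1 and 0, and 2 and 2 for the cotransporters and exchangers, 0 and 4, 1 and 1, and 0 and 4 for the potassium channels, and 0 and 1, 1 and 0, and 0 and 1 for the water channels.

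**Figure D4:**
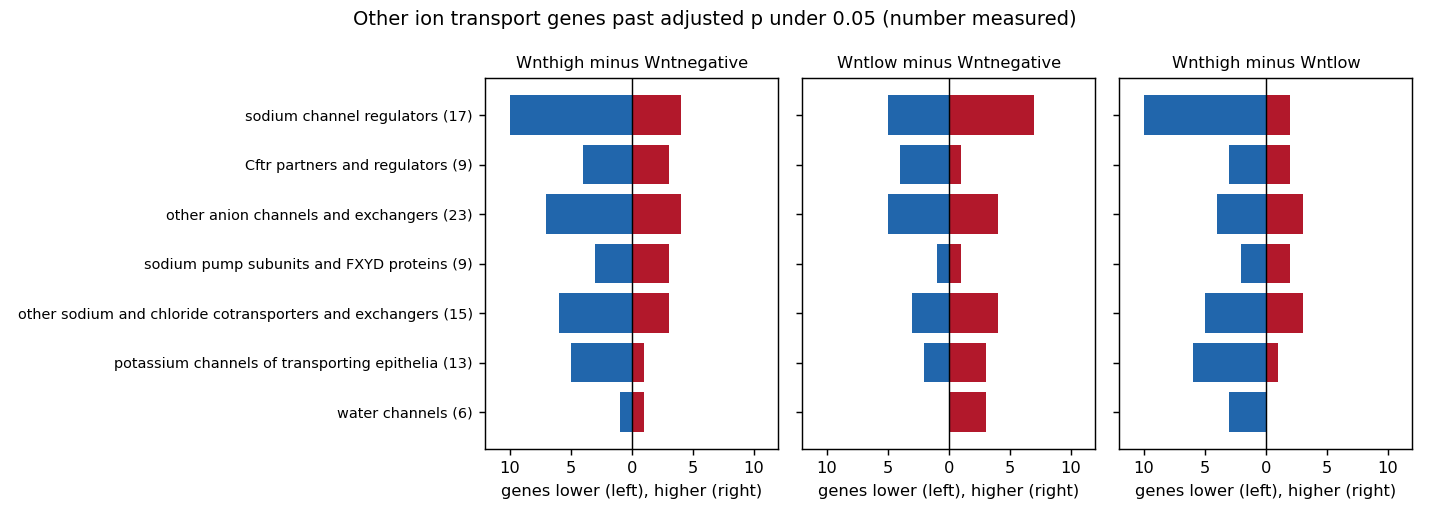
Number of genes of 7 ion transport lists (rows, with the number measured) past an adjusted p of 0.05 in the 3 comparisons, lower to the left and higher to the right of 0 on the horizontal axis. Among 17 sodium channel regulators, 10 were lower in Wnthigh than in Wntnegative cells and 10 lower than in Wntlow cells, beside 24.6% and 16.4% of all genes.

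The genes most like each member were taken as the highest Pearson correlations of run-centred values over the 18 arrays, among 18082 named protein-coding genes. Scnn1b was followed by Slc1a1, a glutamate and cysteine transporter, at 0.987, Upk2, a uroplakin, at 0.986 and Krtap17-1 at 0.985. Scnn1g was followed by Dbt at 0.987, Slc1a1 at 0.984 and Scnn1b at 0.984. Scnn1a was nearest Psap, which encodes the precursor of saposins, at 0.984, then Cd24a at 0.976 and Clic6 at 0.975. Cftr was nearest Map3k20 at 0.996, then Plekhh2 and Rassf2, both at 0.993. Slc26a9 had Exosc7, Gsap and Enpep at 0.994, 0.994 and 0.994. Ano1 had Ldlrad3 at 0.989, Pdia5, a disulfide isomerase of the endoplasmic reticulum, at 0.986 and Dapk2 at 0.982. Slc12a2 had Pof1b at 0.993, Trpm6, a magnesium channel, at 0.992 and Me1, malic enzyme, at 0.991. Atp1b1 had Tceal9 at 0.991, Oat at 0.989 and Wwp1 at 0.989. The nearest genes of Slc26a4 were less close, with Gbp9 at 0.943, Fcer2a at 0.941 and Malt1 at 0.940. These correlations include the Wntnegative array of experiment 7, where Slc26a4 was at 12.48, and rest in part on it. On that array Fcer2a was at 6.30 and Malt1 at 7.94, against means of 3.99 and 6.17 in the Wntnegative arrays of experiments 8 and 9. The 18 arrays fall into groups, so high values arise for any genes with the same order of groups, and no p is given.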

How the data were processed

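Expression was measured on 18 whole-transcript arrays, 6 per reporter group. The deposited table holds log2 values made by RMA, per the submitters' processing notes; the software, chip library and genome build behind it were not given in the sources used here. Leaving controls aside, 30604 of 65956 probe sets had 1 symbol and 2146 several, and 827 symbols were brought up to date through RefSeq (GRCm38.p6). Where a gene had several probe sets (355 genes, no member), the highest mean was kept.

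limma 3.58.1 in R 4.3.3 fitted group and run over 30142 genes of all 18 arrays, two-sided, with Benjamini-Hochberg adjustment and a threshold of 0.05, after a test on simulated data. Intervals are 95% and unadjusted. Members and lists were chosen with earlier results of these data known. Named genes were the members, the 3 genes most like each, and up to 4 genes a pathway list by lowest adjusted p. The labels give arrays of different groups a shared experiment number, which pairs them. Residuals from group means of the 16 same-numbered pairs correlated at 0.486 to 0.802, and with run means removed at 0.00339 to 0.516, 12 of them over 0.1. Other settings were no run term, the experiment number as a block (fixed, then random), single runs, median-centred arrays, quantile normalization, a filter on dim genes, probe set means, only the groups compared, array weights, a trended robust variance, and each array or experiment left out. Raising values to the background was added after seeing the data.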

Additional observations from a re-analysis of the deposited data

Results flagged for a closer look

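Slc26a4 was at 12.48 on the Wntnegative array of experiment 7, and the nearest of the other 5 Wntnegative arrays was at 7.02. This gap was 0.862 of the group's range, above Dixon's critical value of 0.625 for 6 samples. Of 27 checks (9 members in 3 groups), no other exceeded it. For draws from 1 normal distribution, chance alone exceeds it in about 1 in 20 groups. Here the 6 values of a group came from both runs and were not centred on them, so that rate may differ. On that array Slc26a4 was above the mean of the Wntnegative arrays of experiments 8 and 9 by 6.02. Among 18082 named protein-coding genes this excess ranked 2, after that of Pigr, the receptor that carries polymeric immunoglobulin across epithelia, at 6.55.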

How the results depend on the processing

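Counts of members called were 7, 7 and 8 (Wnthigh minus Wntnegative, Wntlow minus Wntnegative, Wnthigh minus Wntlow) under array centring, quantile normalization, the filter on dim genes, probe set means, 2 groups at a time, the trended robust variance, array weights and values raised to the background. With 2 groups at a time, the 7 between Wntlow and Wntnegative cells held Slc12a2 (adjusted p = 0.0393) in place of Slc26a4 (0.102). Without the run term the Wntlow minus Wntnegative count was 4, and 2824, 1061 and 1351 of all genes passed, against 12142, 7697 and 8402. In experiments 2 to 5 alone 1 member passed between Wntlow and Wntnegative and 3 between Wnthigh and Wntlow cells, with 2532 and 3291 of all genes. In experiments 7 to 9 alone 7906 and 4471 genes passed between Wnthigh or Wntlow and Wntnegative cells. With values raised to the background, a setting chosen after seeing the data, 9062, 5691 and 6624 genes passed. With the experiment as a fixed replicate block 6, 6 and 8 members and 11573, 8002 and 8139 genes passed, and with it as a random block 7, 7 and 8 members. The fixed block ended the calls of Ano1 (Wnthigh minus Wntnegative) and Slc26a4 (Wntlow minus Wntnegative) and no other member's. The random block ended neither. With single arrays or experiments left out, 6 to 7, 6 to 7 and 8 members and 10772 to 12297, 6071 to 8300 and 7178 to 8766 genes passed. The Wnthigh minus Wntnegative difference of Scnn1b, which never passed, turned to −0.03 without experiment 4 and −0.15 without its Wnthigh array, and ranged up to 0.87. The cause of these changes was not tested. The difference between runs was called for 0 members under every alternative run on it. Signal near background limits what can be read for Cftr in Wnthigh and Slc26a4 in Wnthigh and Wntlow cells.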

Other observations

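On the Wntnegative array of experiment 7, where Slc26a4 was at 12.48, other genes also stood above the mean of the Wntnegative arrays of experiments 8 and 9. They were chosen after their values were seen, and no cause was tested. Pigr was at 13.11 against 6.56, Ly6i, a lymphocyte antigen 6 family gene, at 12.46 against 7.86, and Vnn1, a pantetheinase, at 14.57 against 11.05. The MHC class II gene H2-Eb1 was at 11.12 against 7.85, the complement factor gene Cfb at 7.90 against 4.88, and Retnla at 8.57 against 5.62. Of the other 8 members, Scnn1a, Scnn1b, Scnn1g, Cftr, Slc26a9, Ano1, Slc12a2 and Atp1b1 were at 13.07, 8.81, 8.59, 7.80, 15.48, 6.67, 12.26 and 17.35 on that array, and the Wntnegative arrays of experiments 8 and 9 were within 1 log2 unit of each.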
